A study of Mus musculus with 15 samples.

Results

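The transcription factor AP-1 and other immediate early proteins are encoded by the 10 genes described here: Fos, Fosb, Fosl1 and Fosl2 of the Fos family, Jun, Junb and Jund of the Jun family, and Egr1, Ier2 and Ier3. They were given as a list of mouse symbols and matched to Entrez identifiers, and all 10 were found among the 27179 genes counted. Of these, 9 were among the 12712 genes that passed a filter on low counts and were tested, and Fos was not. RNA was sequenced from 4T1 cells, a mouse mammary carcinoma line given the genotype WT in all 15 libraries, as 5 populations with 3 biological replicates each. E1, E2, A and M are clonal populations: the parental cells were transfected with the plasmid pNLS-iRFP670, which encodes a near-infrared fluorescent protein, and single cells were isolated and expanded. They are set against the parental population itself. Clones were kept under the antibiotic G418, which was withdrawn before the culture from which RNA came, and RNA of all populations was collected at 72 hours of culture and about 80% confluency. Each clonal population is 1 clone, so its replicates describe that clone only, and what the 4 clones have in common cannot be told apart from transfection, isolation and G418. The labels do not say whether replicates came from separate cultures, so p-values measure the spread between these libraries, which may be technical.

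AP-1 is a dimer of a Jun protein with a Fos, Jun, ATF or Maf protein that binds short DNA elements in promoters and enhancers. Immediate early genes are transcribed within minutes of serum, growth factors or stress, through the ERK kinases, SRF with its ternary complex factors, and CREB, and most of their transcripts decay quickly, so that medium changes and harvesting can move them as well. In carcinoma cells AP-1 is known for driving cyclin D1, matrix proteases and invasion.

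The 250 bases before 1 annotated start of each gene were taken from RefSeq (GRCm38.p6) for 7 of the 10 genes. They are shown for Fosb, the gene whose level differed most between populations, for its paralogue Fos, which was close to 0 counts, and for Jun. The Fosb window is chr7:19310046-19310295 on the minus strand. Its 73 bases nearest to that start lie inside the annotated Fosb gene, which begins farther out, and the other 177 bases (chr7:19310119-19310295) are printed. The window of Fos is chr12:85473640-85473889 on the plus strand, and that of Jun is chr4:95052223-95052472 on the minus strand. Capitals mark matches on either strand to TGACG, the core of a cyclic AMP response element, to TGANNTCA, a form of such an element that AP-1 and ATF dimers bind, to TATAAA and to GGGCGG, a GC box.
Fosb: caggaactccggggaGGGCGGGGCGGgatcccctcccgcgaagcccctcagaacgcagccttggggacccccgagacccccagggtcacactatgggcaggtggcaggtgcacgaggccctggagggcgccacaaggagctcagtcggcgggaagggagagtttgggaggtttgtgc
Fos: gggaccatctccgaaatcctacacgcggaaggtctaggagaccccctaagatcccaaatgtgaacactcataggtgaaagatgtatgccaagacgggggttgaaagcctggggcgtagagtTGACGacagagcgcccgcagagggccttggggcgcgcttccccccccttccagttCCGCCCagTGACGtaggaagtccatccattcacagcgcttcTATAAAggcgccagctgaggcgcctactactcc
Jun: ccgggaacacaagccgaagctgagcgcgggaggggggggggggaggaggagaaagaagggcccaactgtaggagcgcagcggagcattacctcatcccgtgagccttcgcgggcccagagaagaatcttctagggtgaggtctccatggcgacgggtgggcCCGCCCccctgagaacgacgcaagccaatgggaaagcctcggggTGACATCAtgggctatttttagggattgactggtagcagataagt
Counting the last base before the start of the window's transcript as -1, TGACG lay at -66 to -62 and at -129 to -125 in Fos. In Fosb it lay at -60 to -56, among the bases inside the annotated gene that are not printed. Fosb held 3 GGGCGG matches, of which the 2 farthest from the start overlap by 1 base and the third is inside the annotated gene, and no TATAAA, which Fos held at -33 to -28. Jun held TGACATCA at -45 to -38. Of 32851 promoter windows of the same length, 17.8% held TGACG and 11.9% held TGANNTCA. TATAAA was found in 12.4% of windows and GGGCGG in 32.7%. The classical AP-1 site, TGANTCA, was in 6.75% of windows and the CArG box, the SRF site, in 1.47%. Neither was in the windows of these 7 genes. Egr1, Fosl1 and Ier2 are not among the 7, and bases farther out than 250 were not searched, so sites there are not covered. The matches describe letters only.

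Values below are CPM, counts scaled to the library total as adjusted by TMM. Calls are those of edgeR's quasi-likelihood test with Benjamini-Hochberg adjustment, at an adjusted p under 0.05. Library totals were 20143111 to 36831801 counts, of which 61.4% to 72.1% fell on the 6 most counted genes, leaving 6164768 to 14206491 counts for the rest. All 6 carcinoma markers (Epcam, Krt8, Krt18, Krt7, Cdh1 and Cldn3) were detected in every population, with a summed level of 383 to 499 CPM in E1, 441 to 479 in E2, 571 to 638 in A, 341 to 618 in M and 274 to 303 CPM in parental libraries. Of the 6, 4 were higher in each clone, while Cdh1, which encodes E-cadherin, was lower in A (22.4 CPM, against 68.2 CPM in parental cells, log2 fold change -1.60, adjusted p = 9.00e-07) and in M (36.3 CPM, -0.91, adjusted p = 0.00225). The 5 leukocyte markers were at 0 counts in all libraries except for 1 marker in E1, whose summed level reached 0.0465 CPM, and the 4 endothelial markers summed to at most 0.425 CPM. The 5 fibroblast markers summed to 3.15 to 5.71 CPM in E1, 3.90 to 9.63 in E2, 21.1 to 33.8 in A, 6.08 to 12.1 in M and 6.85 to 7.56 in parental libraries. Almost all of this was Pdgfra, a growth factor receptor, and 3 of the 5 markers were at 0 in A. The part of these shifts in the results below was not tested.

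Of the 9 tested genes, 5 differed among the 5 populations (Fosb, Fosl2, Jun, Jund and Ier2), where 40.9% of all tested genes did. Without E2 replicate 1 the number was 3. Ier2 passed narrowly (adjusted p = 0.0493 in the test of any difference). It lost this call under most single omissions of a library, with an adjusted p of up to 0.259. Fosl1, Junb, Egr1 and Ier3 were not called (adjusted p of 0.818, 0.251, 0.533 and 0.312 in the test of any difference).

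**Figure D1:**
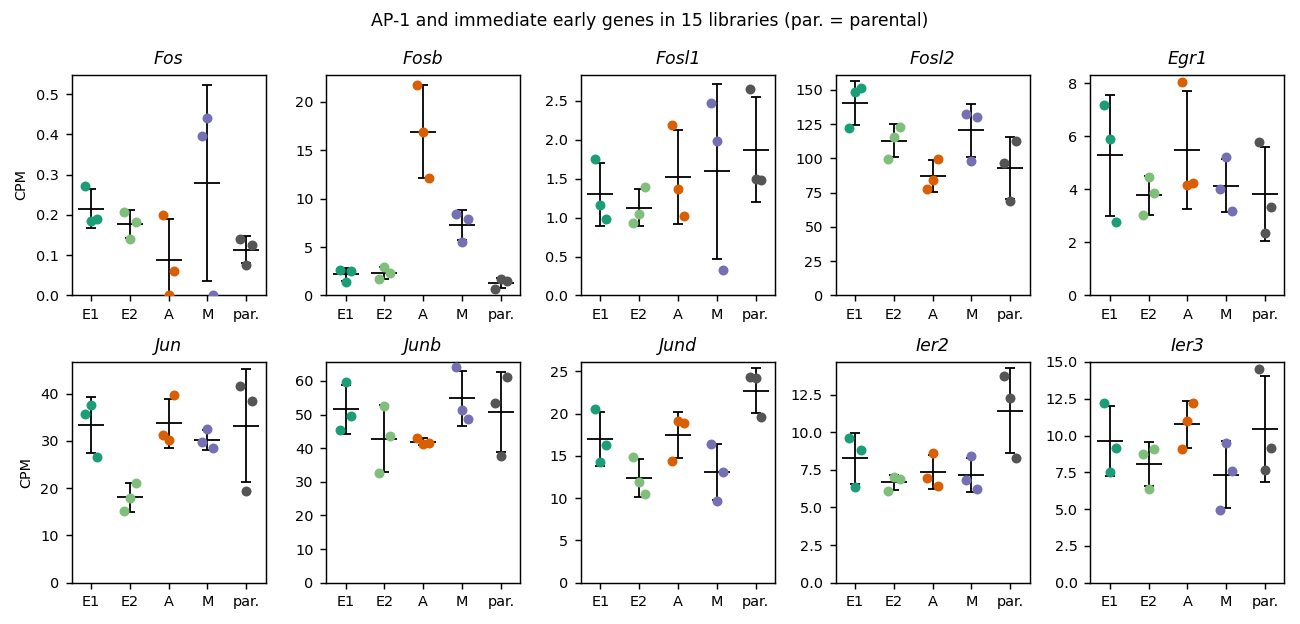
CPM (linear axes from 0) of the 10 genes in each library, with populations E1, E2, A, M and parental from left to right; points are libraries, and the horizontal bar and whiskers are the mean and SD of 3. Fosb in A (12.1 to 21.8 CPM) and in M (5.56 to 8.46 CPM) lay above all other libraries, while the other genes differed by less between populations.

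Fosb (identifier 14282, chr7:19302696-19310118, GRCm38), which encodes a Fos family partner of Jun proteins, differed most among the members. It had 2.66, 1.44 and 2.52 CPM in E1, and 1.72, 2.97 and 2.31 CPM in E2. In A it had 21.8, 16.8 and 12.1 CPM, from 655, 516 and 394 counts. In M it had 8.46, 5.56 and 7.87 CPM, against 0.696, 1.68 and 1.45 CPM in the parental libraries, the last from 15, 44 and 46 counts. Every A library lay above every M library, and every M library lay above all E1, E2 and parental libraries. In A it rose by 3.64 on the log2 scale over the parental level (SE 0.442, adjusted p = 7.63e-09), with means of 16.9 ± 4.82 CPM in A and 1.28 ± 0.516 CPM in parental cells (SD, n = 3 each). In M it rose by 2.43 (SE 0.412, adjusted p = 9.52e-06), with a mean of 7.30 ± 1.53 CPM (SD, n = 3). In E1 (0.76, SE 0.459, adjusted p = 0.124) and E2 (0.83, SE 0.430, adjusted p = 0.0793) the difference from the parental cells did not pass the test, and the E1 replicates overlapped the parental ones. In bulk RNA, more cells with Fosb transcripts and more transcripts per cell cannot be told apart.

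The contrasts between clones involve no parental mean. Fosb was higher in A than in E1 by 2.88 on the log2 scale (adjusted p = 1.51e-07) and than in E2 by 2.81 (adjusted p = 3.63e-07). It was higher in M than in E1 by 1.67 (adjusted p = 0.00184) and than in E2 by 1.60 (adjusted p = 0.00331). Between M and A it was lower in M (log2 fold change -1.21, SE 0.306, adjusted p = 0.00553), and without A replicate 1 this call was lost (-0.98, adjusted p = 0.0581). The other 6 calls of Fosb held under all 21 alternatives. The order of the means was therefore parental, E1, E2, M and A from low to high, where the steps from E2 to M and from M to A were called, and those among the lowest 3 populations were not.

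Fosl2 (14284, chr5:32136472-32157840), the Fos family member that encodes FRA-2, was the most abundant of the family in every library. It had 122, 149 and 151 CPM in E1, 99.7, 116 and 123 CPM in E2, and 77.6, 84.1 and 99.9 CPM in A. In M it had 132, 98.2 and 130 CPM, against 97.0, 68.8 and 113 CPM in the parental libraries. E1 lay above the parental population in every replicate, and the replicates of the other clones overlapped the parental range. In E1 Fosl2 rose by 0.60 over the parental level (SE 0.234, adjusted p = 0.0158), with means of 141 ± 16.1 CPM in E1 and 92.9 ± 22.4 CPM in parental cells (SD, n = 3 each). This call was lost without E1 replicate 2 (adjusted p = 0.0673), E1 replicate 3 (0.0749) or parental replicate 2 (0.113). A was lower than E1 in every replicate (log2 fold change -0.69, SE 0.146, adjusted p = 0.00249), a call kept under all 21 alternatives. The step between M and A (0.46, adjusted p = 0.0547) did not pass, though it did under 9 of 21 alternatives.

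Fosl1 (14283, chr19:5447698-5455938) encodes FRA-1, which is known from mesenchymal and invasive breast carcinoma cells. Its counts were low, 10 to 81 per library, and its level ran from 0.324 CPM in M replicate 3 to 2.65 CPM in parental replicate 1. Within M alone the replicates had 2.47, 1.99 and 0.324 CPM, and no comparison was called. Fosl1 overlaps Ccdc85b, which had 3491 counts over the 15 libraries; the strand setting of the counting is not given in the sources used here, so reads of the 2 genes may not be separated. Fos itself (14281, chr12:85473890-85477274), the founding immediate early gene, had 0 to 18 counts per library and is given without a fold change. It had 9, 4 and 6 counts in E1, 4, 4 and 6 in E2, and 6, 0 and 2 in A. M had 9, 18 and 0 counts, against 3, 2 and 4 in the parental libraries. The 0 in A replicate 2 and in M replicate 3 allow a level of up to 0.0978 and 0.0971 CPM (3 counts, counting error only). Under the alternatives that tested Fos, it was not called in the test of any difference (adjusted p of 0.635 to 0.915). At such counts small differences of Fos between populations would be missed.

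Levels of different genes were compared per kilobase of exon. Summed over the 4 Fos family genes, the level was 15.6 ± 1.39 CPM per kb in E1, 12.7 ± 1.40 in E2, 12.5 ± 0.391 in A, 14.5 ± 2.14 in M and 10.8 ± 2.36 in the parental population (SD, n = 3 each). Fosb made up 27.5%, 22.4% and 15.2% of that sum in the A libraries. In M its share was 8.25%, 7.30% and 8.46%, against 0.971%, 3.31% and 1.83% in the parental libraries. In E1 it was 2.30% ± 0.819 and in E2 2.93% ± 0.634 (SD, n = 3 each). The larger Fosb share in A went with a smaller Fosl2 share, 72.0% ± 8.71 in A and 88.8% ± 2.76 in parental cells, so Fosl2 was still the main Fos family transcript in A. The share of Fosl1 was 1.07% to 11.3% over all libraries. Shares of a sum move together by construction, and no test was run on them.

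**Figure D2:**
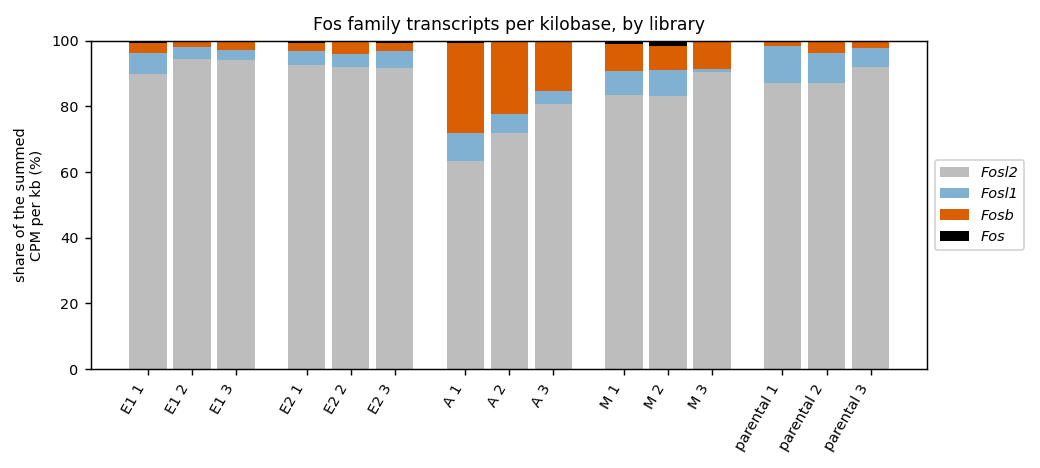
Share (%) of Fosl2, Fosl1, Fosb and Fos in the summed CPM per kb of the Fos family, 1 bar per library, with E1, E2, A, M and parental from left to right. Fosb takes 15.2% to 27.5% in A and 7.30% to 8.46% in M, and Fosl2 is the largest part of every bar.

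In the Jun family, Jun and Jund were lower in 1 or more clones, and Junb was called in no comparison. Jun (16476, chr4:95049036-95052222), the classical partner of Fos proteins, had 35.8, 37.6 and 26.6 CPM in E1, and 15.1, 17.8 and 21.2 CPM in E2. It had 31.3, 30.1 and 39.6 CPM in A, and 29.7, 32.5 and 28.4 CPM in M, against 41.7, 19.5 and 38.4 CPM in the parental libraries. E2 was below every E1, A and M library, while the second parental library fell inside the E2 range. Jun fell in E2 relative to the parental population (log2 fold change -0.87, SE 0.374, adjusted p = 0.00567), with means of 18.0 ± 3.01 CPM in E2 and 33.2 ± 12.0 CPM in parental cells (SD, n = 3 each). It was higher in A than in E2 (0.90, SE 0.186, adjusted p = 0.00333). Both calls were kept under all 21 alternatives. E2 against E1 (-0.88, SE 0.208, adjusted p = 0.0810) and M against E2 (0.74, SE 0.150, adjusted p = 0.0529) did not pass, and they did pass under 4 and 7 alternatives. Adjustment was made within each comparison, where 0.236% of all tested genes were called for E2 against E1 and 17.9% for E2 against parental cells. Adjusted p of different comparisons therefore do not rank these differences. In the test of any difference, the adjusted p of Jun was 0.00725, and 0.0583 without E2 replicate 1.

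Jund (16478, chr8:70697739-70700616), the Jun protein gene that is expressed steadily in many cells, had 20.5, 14.3 and 16.3 CPM in E1, and 14.8, 11.9 and 10.5 CPM in E2. It had 14.4, 19.2 and 18.9 CPM in A, and 16.4, 9.71 and 13.1 CPM in M, against 24.3, 24.1 and 19.7 CPM in the parental libraries. All E2, A and M libraries were below all parental libraries. Jund fell in E2 (-0.87, SE 0.177, adjusted p = 0.00402), a call kept under all 21 alternatives. It fell in M (-0.80, SE 0.240, adjusted p = 0.00936), but not without M replicate 2 (-0.62, adjusted p = 0.0618). In A (-0.37, adjusted p = 0.178) and E1 (-0.41, adjusted p = 0.190) the difference was not called. Junb (16477, chr8:84976909-84978748), which encodes a Jun protein with weaker activating capacity, ranged from 32.5 CPM in E2 replicate 1 to 64.1 CPM in M replicate 1, and every pair of populations overlapped except A with E1 and A with M. Per kilobase, Junb was the largest part of the Jun family, 46.5% ± 3.65 of the sum in A, 58.2% ± 6.78 in E2 and 47.5% ± 4.52 in parental cells (SD, n = 3 each). The summed Jun family level was 43.1 ± 3.27 CPM per kb in E1, 31.7 ± 3.89 in E2, 39.3 ± 2.34 in A, 41.1 ± 5.09 in M and 46.0 ± 7.90 in parental cells.

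Ier2 (15936, chr8:84661331-84662852), a nuclear regulator among the immediate early genes, had 9.62, 6.37 and 8.83 CPM in E1, and 6.09, 7.02 and 6.90 CPM in E2. It had 6.94, 8.61 and 6.46 CPM in A, and 6.83, 8.41 and 6.25 CPM in M, against 13.7, 12.3 and 8.28 CPM in the parental libraries. The E2 replicates lay below the parental ones, and those of A and M overlapped the third parental library. Ier2 fell in E2 (-0.77, SE 0.229, adjusted p = 0.0249) and in A (-0.63, SE 0.252, adjusted p = 0.0430), and in M it missed the threshold (-0.66, adjusted p = 0.0590). These calls were the least stable of the members. The call in E2 was lost without E2 replicate 1, 2 or 3 or parental replicate 1 or 2, with an adjusted p of 0.0508 to 0.114. The call in A was lost without A replicate 1 or 3, E1 replicate 3 or parental replicate 1 or 2, with 0.0511 to 0.160. In M the gene was called without parental replicate 3 (0.0304) and with DESeq2 (0.0348).

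Egr1 (13653, chr18:34861207-34864956) encodes a zinc finger factor that serum and growth factors induce through SRF. It had 7.20, 5.90 and 2.77 CPM in E1, 8.04, 4.17 and 4.24 CPM in A and 5.80, 2.37 and 3.34 CPM in the parental libraries, so that replicates of 1 population differed by up to 2.60 times. E2 ran from 3.02 to 4.47 CPM and M from 3.21 to 5.22 CPM, and every pair of populations overlapped. Ier3 (15937, chr17:35821713-35822911), a survival-associated early response gene, ran from 4.94 CPM in M replicate 1 to 14.5 CPM in parental replicate 1, and its populations overlapped in every pair as well. Neither gene was called in any of the 10 comparisons.

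In E1 against the parental population 1 of 9 members was called (11.1%; 15.1% of all tested genes), Fosl2. In E2 it was 3 of 9 (33.3%; 17.9% of all tested genes), Jun, Jund and Ier2, all lower. In A it was 2 of 9 (22.2%; 30.0% of all tested genes), Fosb higher and Ier2 lower. In M it was also 2 of 9 (22.2%; 14.1% of all tested genes), Fosb higher and Jund lower. These 4 comparisons share the 3 parental libraries. For calls in 1 direction the background was 7.77% higher and 7.35% lower in E1, 9.14% higher and 8.80% lower in E2, 15.1% higher and 14.9% lower in A, and 7.87% higher and 6.28% lower in M. The 9 members had a median log2 fold change of 0.01 in E1 (-0.01 over all tested genes), -0.36 in E2 (0.01), -0.09 in A (0.03) and -0.14 in M (-0.01). A share near that of all genes is no result about the members.

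Between clones, 0 to 2 members were called. A against E1 had 2 of 9 called (29.6% of all tested genes were), Fosb and Fosl2, and A against E2 had 2 (22.4%), Fosb and Jun. M against E1 had 1 (3.89%), M against E2 had 1 (3.50%) and M against A had 1 (17.7%), in each case Fosb. E2 against E1 had 0 (0.236%) in edgeR, with 2 at an unadjusted p under 0.05, and DESeq2 called 1, Jun. The corresponding median log2 fold changes were 0.04 for A against E1, 0.41 for A against E2, -0.21 for M against E1, 0.13 for M against E2, -0.16 for M against A and -0.31 for E2 against E1, while those of all tested genes were within -0.02 and 0.02.

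**Figure D3:**
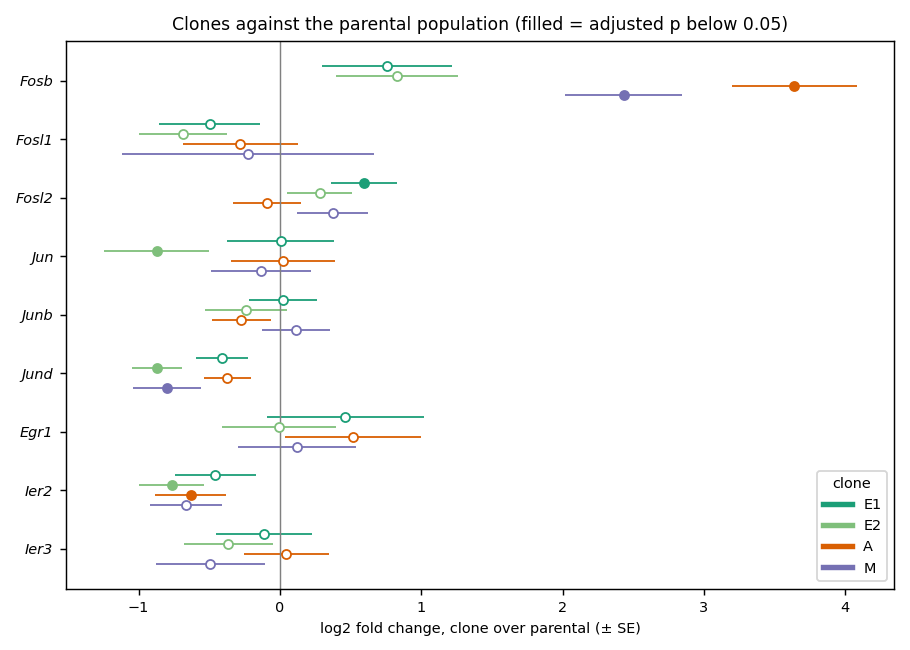
Log2 fold change (clone over parental, x axis) of the 9 tested genes in E1, E2, A and M; whiskers are ± 1 SE and filled points have an adjusted p under 0.05. Fosb in A (3.64) and M (2.43) stands far to the right, and the other called values lie between -0.87 and 0.60.

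Because handling can move immediate early genes, their spread between replicates was examined. The SD of log2 CPM within populations, pooled over the 5, was 0.765 for Fosl1, 0.529 for Egr1, 0.460 for Fosb and 0.373 for Ier3, and between 0.237 (Fosl2) and 0.331 (Jun) for the other 5 genes. The median over all tested genes was 0.324. Fosl1 had a larger spread than 83.0% and Egr1 than 72.2% of tested genes, whereas Fosl2 exceeded 29.9%. In parental replicate 1, 8 of the 9 members were above their population's mean (median deviation 0.30 on the log2 scale), Fosb being the exception, and in parental replicate 2 it was 3 of 9 (median -0.39). In E1 replicate 1 it was 7 of 9 (median 0.29) and in E2 replicate 1 2 of 9 (median -0.23). In the A libraries the medians of the members were -0.07, -0.02 and -0.02. Of 20 other tested immediate early genes, 12 were above the mean in parental replicate 1 (median 0.14) and 5 in parental replicate 2 (median -0.13), and the heat shock genes had medians of -0.04 and 0.03 there. In the A libraries, where Fosb had 21.8, 16.8 and 12.1 CPM, the other immediate early genes had medians of -0.11, -0.01 and 0.18, and the heat shock genes -0.22, 0.06 and 0.21. The largest median deviations were in parental replicate 2 for the members, in A replicate 3 for the other immediate early genes and in A replicate 1 for the heat shock genes, and the labels give no record of handling beyond culture time and confluency. Its part in the differences was not tested.

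For the 5 called members, the genes with the most similar log2 CPM over the 15 libraries are given as a description. The libraries share populations, so any gene that differs between populations in the same order scores high. Closest to Fosb were Lca5, a ciliary protein gene (r = 0.969), Mir125b-1, counted at its gene locus (r = 0.949), and Fblim1, a filamin-binding adaptor gene (r = 0.941). Fblim1 had 16.8 CPM in E1, 18.8 in E2, 45.7 in A, 29.8 in M and 11.8 in the parental population, the same order as Fosb. Closest to Fosl2 were Mfhas1 (r = 0.849), Ube2j2 (r = 0.849) and Amotl2 (r = 0.844), and closest to Jun were Wdfy2 (r = 0.911), Cyth1 (r = 0.873) and the Hippo kinase gene Lats2 (r = 0.854). Closest to Jund were Grina (r = 0.865), Dad1 (r = 0.857) and the ribosomal protein gene Rpl23 (r = 0.854). Closest to Ier2 were the ribosomal protein gene Rpl7 (r = 0.847), Stk24 (r = 0.828) and Polr3a (r = 0.827). Rpl7 had 116 CPM in E1, 102 in E2, 112 in A, 98.0 in M and 167 in the parental population, and whether a shift in ribosomal protein transcripts bears on Ier2 and Jund was not tested.

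The genes around Fosb were examined after its values had been seen. Within 250 kb there were 22 other tested genes. In E1, 5 of them were higher and 1 lower than in parental cells, with a median log2 fold change of 0.18 (-0.01 over all tested genes). In E2, 6 were higher and 1 lower, with a median of 0.34 (0.01 over all tested genes). In A, 8 were higher and 2 lower, with a median of 0.65 (0.03 over all tested genes). In M, 6 were higher and 1 lower, with a median of 0.51 (-0.01 over all tested genes). The neighbours thus had a positive median in all 4 clones, also in E1 and E2, where Fosb was not called. The share of all tested genes called higher was 7.77% for E1 and 9.14% for E2, and it was 15.1% for A and 7.87% for M. With 1 library left out, the neighbours called higher numbered 2 to 5 in E1, 3 to 6 in E2, 5 to 8 in A and 4 to 7 in M, and those called lower 0 to 1 in E1, E2 and M and 2 in A. The 8 in A became 5 without A replicate 1, A replicate 3 or parental replicate 2. Ercc1, a DNA repair endonuclease gene at chr7:19344067-19356524, had 40.7 CPM in A and 38.9 CPM in M, against 14.1 CPM in parental cells (log2 fold changes of 1.53 and 1.46, adjusted p = 5.23e-07 and 3.09e-06). Klc3, a kinesin light chain gene at chr7:19394440-19404174, had 4.02 CPM in A and 3.02 CPM in M, against 0.823 CPM in parental cells (2.20 and 1.79, adjusted p = 0.000167 and 0.00331). Vasp, an actin regulator gene, was higher in A (0.78, adjusted p = 0.00276) and in M (0.92, adjusted p = 0.00159). Opa3 was lower in A (-1.13, adjusted p = 0.00141) and had a value of 0.16 in M (adjusted p = 0.737). The calls of these 4 genes held under all 21 alternatives, while those of Dmpk, Rtn2 and Ppp1r37 in A were lost under 4 each and that of Qpctl under 13. In M the higher calls of Snrpd2 and Ppp1r37 were lost under 10 and 5 alternatives, and the lower call of Eml2 under 5. The 25 other tested genes within 250 kb of Jund had a negative median in every clone, from -0.56 (M) to -0.32 (A). Per clone, 3 to 4 of them were called lower and 0 to 2 higher. Near Ier2, 13 were tested, with medians from -0.58 (E1) to -0.24 (E2), 2 to 3 called lower and 0 higher. For Junb the medians ran from -0.15 (E2) to 0.02 (A). These windows were picked after their values had been seen, and their bearing on Jund and Ier2 was not tested. DNA copy number was not measured.

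**Figure D4:**
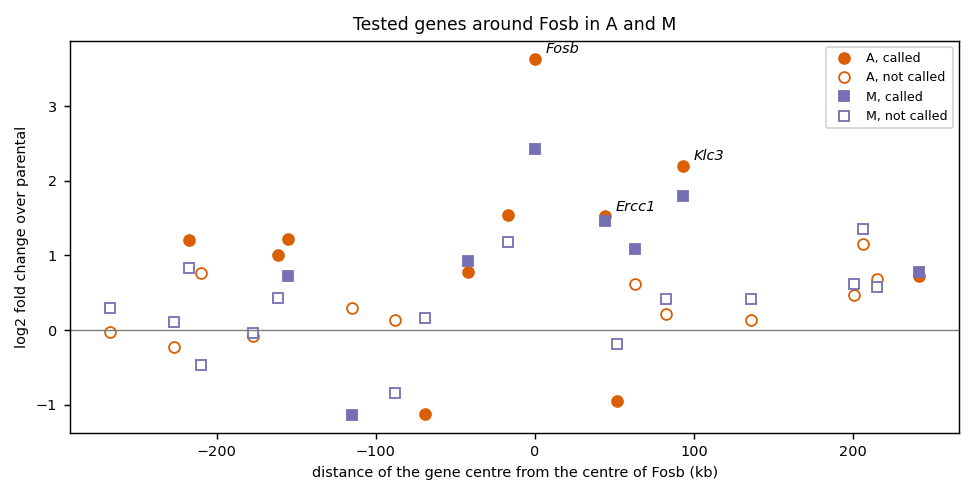
Log2 fold change over the parental population (y axis) of the tested genes around Fosb in A (circles) and M (squares) against the distance in kb of the gene's centre from that of Fosb; filled symbols are called. Fosb is highest in A and in M, followed by Klc3 (2.20 and 1.79), and the neighbours scatter on both sides of 0.

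The other partners in AP-1 dimers, of the ATF, BATF, JDP and MAF families, gave 9 tested genes of 12. Their called members numbered 3 higher and 1 lower in E1, 2 lower in E2, 4 lower in A, and 1 higher and 1 lower in M. The shares of all tested genes called in each direction, given above for the members, hold for this and the following lists. With 1 library left out these counts became 1 to 3 higher in E1, 1 to 2 lower in E2, 0 to 1 higher in A, and 0 to 1 in each direction in M. In A all 4 lower calls were kept with any single library left out. Atf3, a stress-induced ATF protein gene, had 2.23, 1.47 and 2.40 CPM in A, against 22.7, 19.3 and 18.4 CPM in parental libraries, a log2 fold change of -3.26 (SE 0.231, adjusted p = 1.36e-09). It was also lower in A than in E1 (-2.97, adjusted p = 6.31e-09) and than in E2 (-2.44, adjusted p = 2.12e-07), and higher in M than in A (2.27, adjusted p = 1.54e-06). Atf3 had a mean of 10.1 ± 3.26 CPM in M (-0.99 against parental cells, adjusted p = 0.00726, or 0.0561 without M replicate 3). Mafk, a small Maf protein gene, had 9.50, 9.78 and 11.9 CPM in A, against 18.5, 15.7 and 21.6 CPM in parental libraries (-0.84, adjusted p = 0.000397), and rose in E1 (0.82, adjusted p = 0.00125). Mafg fell in A (-1.02, adjusted p = 0.000500). Jdp2, a repressor that pairs with Jun proteins, was named after its values had been seen. It fell in A to 6.31 ± 0.541 CPM, against 11.3 ± 1.72 CPM in parental cells (-0.84, adjusted p = 0.00217), and was lower in A than in E1 (-1.55, adjusted p = 1.65e-06) and than in E2 (-1.16, adjusted p = 0.000130). The population with the highest Fosb level had the lowest means of Atf3, Mafk, Mafg and Jdp2, which are 4 of the 9 tested partners. Atf2 had its highest mean there, 119 CPM, against 80.5 CPM in parental cells. Among the 9, A had 1 called higher and 4 lower against E1, and 2 higher and 4 lower against E2.

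Other immediate early genes gave 20 tested genes of 25. They had 1 higher and 1 lower in E1, 1 higher and 1 lower in E2, 4 higher and 3 lower in A, and 1 higher and 3 lower in M. With 1 library left out, E1 had 1 to 2 higher and 0 to 2 lower, E2 had 1 to 2 in each direction, A had 3 to 4 in each direction and M had 1 to 3 lower. Ccn2, a matrix-associated protein gene, was the one called higher in E1, E2 and M with all libraries, and it was higher in A too. It had 84.2 ± 2.77 CPM in E1 and 77.4 ± 12.9 CPM in E2, and 56.8 ± 14.4 CPM in A and 41.7 ± 16.1 CPM in M, against 17.9 ± 4.71 CPM in parental cells (SD, n = 3 each), with adjusted p of 1.60e-05, 2.23e-05, 6.70e-05 and 0.00292. Myc, a driver of growth that serum induces, had 34.2, 40.9 and 37.6 CPM in A, against 227, 157 and 195 CPM in parental libraries (-2.36, SE 0.172, adjusted p = 2.02e-11). It also fell in M (-1.03, adjusted p = 1.68e-05) and in E2 (-0.57, adjusted p = 0.00710). Nfil3, a basic leucine zipper gene, fell in A (-1.27, adjusted p = 2.29e-05). Egr2, Egr3, Egr4, Nr4a3 and Arc were not tested, and Egr4 had 0 counts in every library.

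The kinases and SRF cofactors upstream of these genes were all tested (20 genes). They had 2 higher in E1, 6 higher and 2 lower in A, and 3 higher in M. With 1 library left out, E1 had 0 to 2 higher, A had 5 to 6 higher and 0 to 3 lower, and M had 1 to 3 higher. In E2 0 were called in edgeR, with 5 at an unadjusted p under 0.05, DESeq2 called 1, and 0 to 1 were called in each direction with 1 library left out. Mapk3, which encodes ERK1, had 19.2, 21.1 and 32.1 CPM in A, against 13.6, 8.96 and 8.69 CPM in parental libraries (1.21, SE 0.306, adjusted p = 0.000323). Rps6ka3, a kinase gene of the RSK family downstream of ERK, rose in A as well (0.59, adjusted p = 0.00518).

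The feedback genes that ERK signalling induces, 11 in all and each tested, had 2 higher and 1 lower in E1, 2 higher and 2 lower in E2, 6 higher in A, and 6 higher and 1 lower in M. Those in A numbered 6 with any single library left out, and the 6 in M became 2 without M replicate 2. With 1 library left out, the higher calls ranged from 0 to 2 in E1 and in E2, and the lower calls from 0 to 2 in E1 and 2 to 3 in E2. The median log2 fold change of the 11 genes was 0.33 for E1 (-0.01 over all tested genes), 0.24 for E2 (0.01), 0.50 for A (0.03) and 0.71 for M (-0.01). Dusp6, the phosphatase that inactivates ERK, had 122, 148 and 143 CPM in A, against 48.8, 59.8 and 63.8 CPM in parental libraries (1.26, SE 0.144, adjusted p = 1.55e-05). In M it had 91.3, 119 and 89.8 CPM (0.80, SE 0.174, adjusted p = 0.00526). Spry1, a Sprouty inhibitor gene, had 22.9, 22.8 and 24.7 CPM in A, against 7.66, 8.04 and 6.08 CPM in parental libraries (1.68, SE 0.129, adjusted p = 3.30e-06). The ETS factor gene Etv5 rose in A (1.21, adjusted p = 0.000243) and in M (1.00, adjusted p = 0.00415, or 0.0596 without M replicate 2). In E2, Spry2 fell (-0.86, adjusted p = 0.00193) and so did Spred2 (-0.63, adjusted p = 0.00862).

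**Figure D5:**
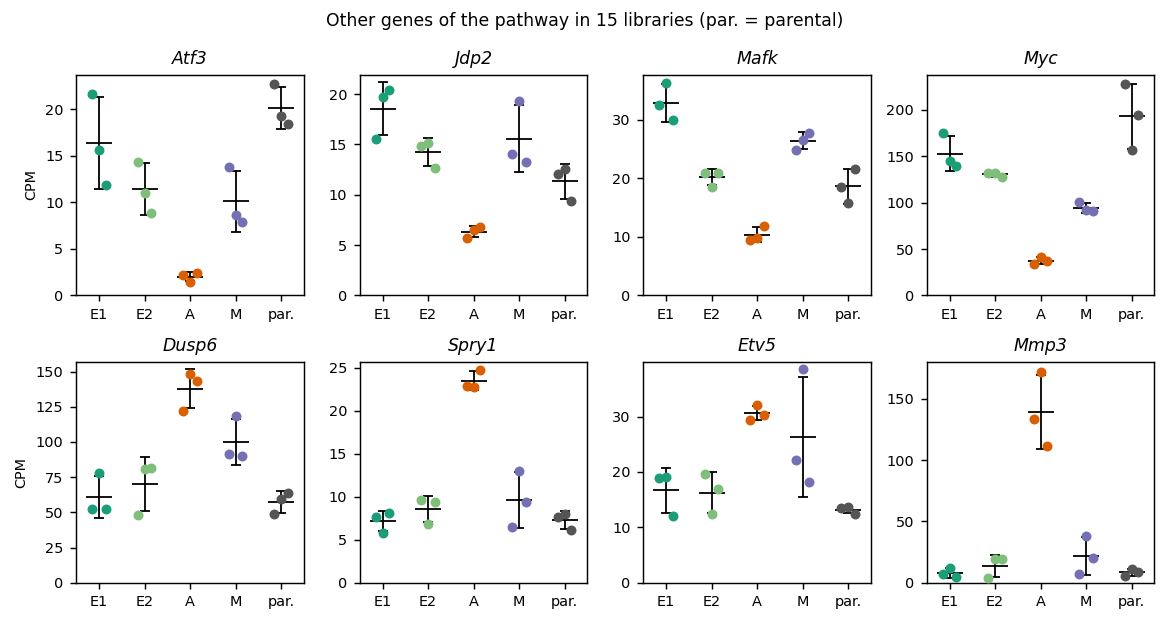
CPM (linear axes from 0) of 8 genes of the pathway in each library, with E1, E2, A, M and parental from left to right; bar and whiskers are the mean and SD of 3. A had the lowest means of Atf3 (2.03 CPM), Jdp2 (6.31), Mafk (10.4) and Myc (37.6). It had the highest means of Dusp6 (138), Spry1 (23.4), Etv5 (30.6) and Mmp3 (139). Etv5 was higher in M replicate 2 (38.6 CPM) than in any A library.

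Genes described as AP-1 targets gave 13 tested genes of 14. They had 1 higher in E1, 2 higher and 1 lower in E2, 5 higher and 1 lower in A, and 5 higher in M, which became 3 higher without M replicate 2, M replicate 3 or parental replicate 1. With 1 library left out, the lower calls numbered 0 to 1 in E1 and 0 to 2 in E2 and in M, and the 2 higher calls in E2 became 0 under most single omissions. The 13 genes had a median log2 fold change of 0.18 for E1 and 0.13 for E2, and of 0.78 for A and 0.63 for M. Mmp3, the protease stromelysin-1, had 134, 172 and 112 CPM in A, against 5.20, 11.3 and 9.04 CPM in parental libraries (4.01, SE 0.375, adjusted p = 0.00214). The protease gene Mmp9 moved the other way in A, with 4.29, 6.91 and 3.14 CPM, against 20.1, 14.7 and 24.9 CPM in parental libraries (-2.05, SE 0.394, adjusted p = 0.00302). Plau, which encodes urokinase, rose in A (1.39, adjusted p = 0.00603), and its receptor gene Plaur rose in M (1.17, adjusted p = 0.000354) and E1 (0.96, adjusted p = 0.00255). Ccnd1, which encodes cyclin D1, had 826 ± 106 CPM in M, against 402 ± 19.8 CPM in parental cells (1.04, adjusted p = 7.69e-06), and Areg, an EGF receptor ligand gene, rose in M too (1.41, adjusted p = 0.00617).

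Heat shock genes, a second set that handling can move, gave 8 tested genes of 10. In A 1 was higher and 3 were lower, in E2 1 was higher and 1 lower, and in M 1 was lower. With 1 library left out, A had 1 to 2 higher and 2 to 3 lower and E2 had 0 to 1 higher and 0 to 2 lower. The lower call in M was lost without M replicate 2 or parental replicate 2, and the higher call in E2 without E2 replicate 3 or parental replicate 1. In E1 0 were called in edgeR, with 2 at an unadjusted p under 0.05, DESeq2 called 1, and 0 to 1 were called lower with 1 library left out. In A the chaperone gene Hspa8 rose (0.95, adjusted p = 0.000278), while the mitochondrial chaperone genes Hspd1 (-1.03, adjusted p = 2.55e-06) and Hspe1 (-0.68, adjusted p = 0.00228) fell.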

How the data were processed

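Total RNA, a directional library preparation and NovaSeq sequencing were used, per the labels. The authors deposited raw counts per gene for each library, made with HISAT2 and featureCounts, and the builds GRCm38 and mm10 are named, per the submitters' processing notes, without versions. The counting's strand setting is not given in the sources used here. The authors' comparison table, which does not name its populations, and their normalized tables were not used.

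Entrez identifiers were joined to RefSeq and GENCODE names. The counts entered edgeR 4.0.16 (with limma 3.58.1, in R 4.3.3): filterByExpr (minimum count 10, minimum total 15), TMM (factors 0.847 to 1.11), and a robust quasi-likelihood fit on population over 15 libraries, with 10 contrasts and a test of any difference. Adjustment was over all 12712 tested genes within a comparison. The common dispersion was 0.0651. Fold changes used a prior count of 2, and SE came from the SD of log2 CPM. Intervals and floors cover counting error only. The fit was first tested on simulated data.

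The members and lists were chosen with earlier results of these data known. In other lists the text names, per list and comparison, up to 3 called genes with the largest fold change. These have at least 5 CPM and replicates that do not overlap. Jdp2 in A against parental cells, Atf2 and the genes around Fosb were named outside this rule. Klc3 among them had at most 4.02 CPM (in A). Alternatives were RLE size factors, no filter, DESeq2 1.42.0, a replicate block, leaving out the 6 most counted genes or each library, and fitting 2 populations only.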

Additional observations from a re-analysis of the deposited data

How the results depend on the processing

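No value changed direction under an alternative while called. With RLE size factors the number of members called was the same in each comparison. E2 against E1, with 0 called, had 1 with no filter and with DESeq2, and 0 to 1 with a library left out. M against E2, with 1 called, had 2 with no filter, with DESeq2, without the 6 genes with the most counts and with the replicate block, and 1 to 2 with a library left out. M against A, with 1 called, had 2 with no filter, without those 6 genes, with a fit of these 2 populations only and with the replicate block, and 0 to 2 with a library left out. With a library left out, the members differing among the populations numbered 3 to 5, those called in E1 against parental 0 to 1, in E2 against parental 2 to 3, in A against parental 1 to 2, and in M against parental 1 to 3. A against E1, A against E2 and M against E1 kept their counts of 2, 2 and 1 under all 21 alternatives. The labels do not say that a replicate number marks a shared batch, and the samples were not treated as paired. Deviations of same-numbered libraries from different populations correlated at -0.058 to 0.213 over 30 pairs (median 0.054, 4 over 0.1), and those of libraries with different numbers at -0.179 to 0.063 over 60 pairs (median -0.029, 0 over 0.1). In 48 of 60 cases the library of another population with the highest correlation had the same number, and 6 of 15 libraries had this in all 4 other populations. In each case only 1 of the 3 libraries to choose from had the same number. The replicate block changed no other count.

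The 6 genes with the most counts take most of each library, which limits counting precision for Fos, Fosl1 and Fosb in parental cells. With 3 replicates, the calls of Ier2, of Fosl2 in E1, of Jund in M and of Fosb between M and A depend on single libraries. The same holds for the call of Jun in the test of any difference.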
